A study of Mus musculus with 24 samples.

Results

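The nuclear genes of respiratory complexes II to V, with cytochrome c, were followed in whole mouse brain. The members were taken by gene symbol: Sdha, Sdhb, Sdhc, Sdhd, Cyc1 and Cycs, and every symbol that starts with Uqcr, Cox4, Cox5, Cox6, Cox7, Cox8 or Atp5. This gave 48 genes of the 18193 with a probe set of a single symbol, each read on its brightest probe set, and 46 of them passed the filter on dim signals (all but Cox4i2 and Cox7b2). Complex II held 4 of the tested members, complex III held 9 (cytochrome c1 included), complex IV held 15 and complex V held 17, and Cycs stood alone. RNA of whole brains of mice aged 4 months was hybridised to 24 Affymetrix arrays, 6 for each of 4 groups. The groups were labelled wt (wild type), aSYN only, Hsp70 only and aSYN/Hsp70, the last carrying both. What aSYN stands for is not spelled out in the labels (alpha-synuclein is the usual reading), nor are the promoter and the line behind either genotype. Whether each sample is its own animal is not stated either, so the p-values below cover the spread among samples, which could be technical.

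Complex II (succinate dehydrogenase) passes electrons from succinate to ubiquinone. Complex III passes them on to cytochrome c, and complex IV (cytochrome c oxidase) from cytochrome c to oxygen. Complex V, the ATP synthase, uses the proton gradient built on the way to make ATP. Neurons draw most of their ATP from this chain, and several complex IV subunits have isoforms known from muscle, lung or testis next to the one found in most tissues. The mitochondrial genome encodes further subunits of complexes III, IV and V, which are no members here.

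Many genes of the chain share promoter motifs, and RefSeq promoter windows (assembly GRCm38.p6, 250 bases before to 50 after the gene's start, 300 in all) matched 36 of the 48 members with 39 windows. On either strand, the motif of nuclear respiratory factor 1 (GCGCA, any base, then GCGC) lay in 25.6% of these windows (10 of 39) and in 4.6% of all 32851 windows. The ETS motif CCGGAAG lay in 33.3% (13 of 39) against 8.86%. AAGATGGC, the motif of YY1, lay in 7.69% against 2.75%, and TATAAA in 10.3% (4 of 39) against 13.6%. The motifs were counted separately, and a window could hold several. Of the 4 windows of complex IV tissue isoforms, 0 held either of the first pair and 2 held TATAAA (Cox7b2 and Cox8b). Sdha, below, shows a pair of nuclear respiratory factor 1 motifs, and Sdhd and Uqcr11 an ETS motif (read on the other strand as CTTCCGG in Sdhd). The muscle isoform Cox8b held 0 of the 4 motifs in the 250 bases before its start. Its TATAAA thus reaches into the 50 bases after the start, which are not printed. Values of these 4 members are given further on. Each is on the minus strand, written 5′ to 3′ up to the gene's start, with motifs in capitals. Bases of a neighbouring gene were left out, which shortens Sdha and Sdhd, and further motifs of their windows lie in those bases. A match is no sign that a factor binds.
Sdha, chr13:74350241-74350316: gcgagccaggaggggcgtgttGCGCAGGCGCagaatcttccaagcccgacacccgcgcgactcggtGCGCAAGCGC
Sdhd, chr9:50603850-50603900: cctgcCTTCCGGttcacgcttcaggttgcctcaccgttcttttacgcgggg
Uqcr11, chr10:80406822-80407071: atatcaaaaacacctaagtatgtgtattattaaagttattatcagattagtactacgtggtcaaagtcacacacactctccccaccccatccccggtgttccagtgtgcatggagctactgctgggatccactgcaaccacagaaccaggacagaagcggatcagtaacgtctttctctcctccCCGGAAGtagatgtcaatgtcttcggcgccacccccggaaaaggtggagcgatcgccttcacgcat
Cox8b, chr7:140900447-140900696: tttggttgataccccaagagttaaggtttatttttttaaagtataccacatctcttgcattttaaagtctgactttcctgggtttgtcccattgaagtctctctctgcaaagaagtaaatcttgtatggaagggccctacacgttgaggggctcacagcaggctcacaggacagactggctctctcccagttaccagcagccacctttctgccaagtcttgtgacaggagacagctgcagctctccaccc

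Array medians ran from 458 to 893 intensity units, and levels below are quantile normalised log2(intensity + 16), called log2 units. In limma's array weights, where a low weight marks an array that deviates from its group, 4 arrays stood under 0.5: aSYN/Hsp70 replicates 4 (0.124) and 3 (0.394) and Hsp70 replicates 3 (0.251) and 6 (0.332). Differences of members that moved by over 1.5 times without these arrays are also given without them, except where only a range over comparisons is given. Other probe sets of a gene and the pathway lists, Ssbp1 apart, are given only with them. The labels give no sex; by the signal of Xist less that of the Y-linked Uty, female samples made up 4 of 6 for wt and for aSYN, 3 for Hsp70 and 2 for aSYN/Hsp70. The markers of neurons (6 of 6), astrocytes (6 of 6), oligodendrocytes (5 of 6) and microglia (6 of 6) were above the dim filter. The 4 probe sets of mouse Hspa1a and Hspa1b gave Hsp70 minus wt differences of -0.14 to 0.26 (limma adjusted p 0.91 to 0.979). Mouse probes may miss a transgene from elsewhere, so these values do not check the Hsp70 label, and the aSYN label was not checked here. In whole tissue, fewer cells of a type and less RNA per cell cannot be told apart.

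The members were bright and steady. Of the 46, 40 lay in the brightest 10% of the 12929 named genes tested; the other 6 were Cox7c and the tissue isoforms Cox6a2, Cox6b2, Cox7a1, Cox8b and Cox8c. Their SD within a group had a median of 0.11 log2 units, from 0.042 for Cox6c to 0.96 for Cox8b, beside 0.13 for the brightest 10% of genes and 0.25 for all genes tested. Brightness compares array signals and not RNA amounts between genes.

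No member changed past the threshold in any comparison. In one limma fit of the 24 arrays, with Benjamini-Hochberg adjustment over all 27022 probe sets, 0 of 46 members were called at 0.05 for aSYN against wt (0.0037% of all probe sets called), Hsp70 against wt (0%), aSYN/Hsp70 against wt (0%), aSYN/Hsp70 against aSYN (0.718%), aSYN/Hsp70 against Hsp70 (0%) and the interaction (0%), which asks whether the aSYN difference depends on Hsp70. Over all 83 tested probe sets of the members the count was also 0 in each. At an unadjusted p under 0.05 there were 0 members for aSYN against wt (4.39% of named genes), 5 for Hsp70 against wt (10.9% of members against 4.74% of genes), 9 for aSYN/Hsp70 against wt (19.6% against 14.5%), 8 for aSYN/Hsp70 against aSYN (17.4% against 18.1%), 1 for aSYN/Hsp70 against Hsp70 (2.17% against 8.35%) and 1 for the interaction (2.17% against 6.27%). Without the 4 arrays of low weight these counts were 2, 2, 1, 2, 0 and 1 in the same order. The shares of all named genes were not counted in that fit. The change in counts can therefore not be told from one of all genes. Arrays of the groups compared did not overlap for 0 members in aSYN against wt (0.781% of named genes), 1 in Hsp70 against wt (0.217%), 1 in aSYN/Hsp70 against wt (0.859%), 0 in aSYN/Hsp70 against aSYN (1.79%) and 0 in aSYN/Hsp70 against Hsp70 (0.271%). The comparisons share groups and are not independent of each other.

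Most members had intervals within 0.5 log2 units of 0, a bound wide beside their median SD of 0.11. The 95% interval of the difference lay within it for 38 of 46 members in aSYN against wt and 36 in Hsp70 against wt. It did for 34 in aSYN/Hsp70 against wt, 36 in aSYN/Hsp70 against aSYN, 38 in aSYN/Hsp70 against Hsp70 and 37 in the interaction. In the same order, it did for 7971, 7625, 6826, 6631, 7492 and 4772 of all 12929 named genes. The median member differed by 0.03 in aSYN against wt (31 of 46 higher), beside 0.0086 over all named genes tested. In Hsp70 against wt the median was 0.010 with 24 higher (all genes 0.0057), in aSYN/Hsp70 against wt 0.050 with 29 higher (all genes -0.0075), and in aSYN/Hsp70 against aSYN 0.020 with 27 higher (all genes -0.015). In aSYN/Hsp70 against Hsp70 it was 0.015 with 27 higher (all genes -0.0096), and in the interaction -0.0032 with 21 higher (all genes -0.023). Without quantile normalisation the numbers higher became 31, 34, 36, 33, 36 and 31 of 46 in the same order, so the split into higher and lower depends on the scaling for all but the first.

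**Figure D1:**
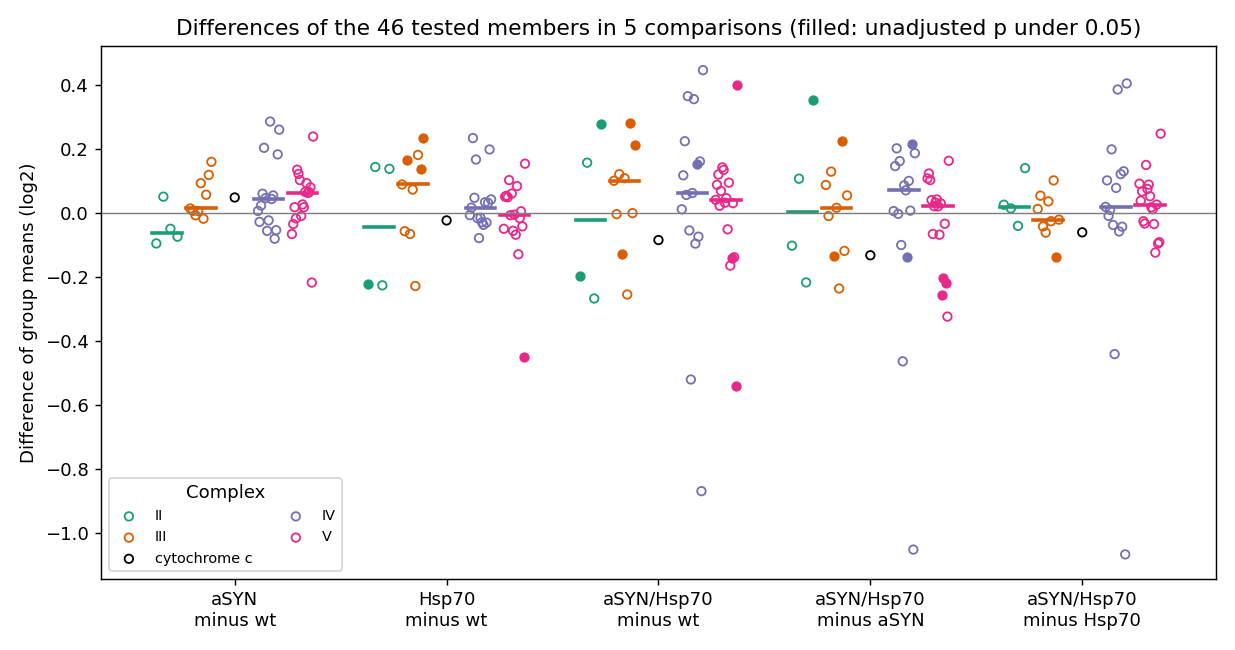
Difference of group means (log2, vertical axis) of each of the 46 tested members in 5 comparisons (horizontal axis), coloured by complex; each point is 1 gene, filled where the unadjusted p is under 0.05, and short lines are the medians of a complex. Most points lie near 0, and the points far below it in complex IV are Cox8b and Cox6b2.

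In complex II, the catalytic flavoprotein Sdha carried the smallest p for Hsp70 against wt. Sdha lay at 15.44, 15.55 and 15.60 log2 units in wt (lowest, median and highest of 6 arrays), 15.33, 15.41 and 15.57 in aSYN, 15.21, 15.32 and 15.37 in the Hsp70 group and 15.14, 15.30 and 15.54 in aSYN/Hsp70. All 6 Hsp70 arrays were below all 6 wt arrays, a separation seen, in either direction, in 0.217% of named genes and in 1 member, while aSYN and aSYN/Hsp70 overlapped wt. The Hsp70 difference was -0.22 (SE 0.075, limma adjusted p = 0.88; -0.24 without the 4 arrays of low weight). For aSYN/Hsp70 against wt it was -0.20 (SE 0.075, adjusted p = 0.297; -0.12 without those arrays). A second bright Sdha probe set, at 15.28 on average, differed by 0.013 and 0.0050 in these comparisons (SE 0.062 in each), so the probe sets of Sdha did not show the same difference. Another, dim one at 9.24 differed by 0.091 and -0.67 (SE 0.27 in each).

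Sdhd, a membrane anchor of complex II, had the smallest p of all members for aSYN/Hsp70 against aSYN. Its levels were 14.12, 14.26 and 14.48 in wt, 14.01, 14.23 and 14.49 in aSYN, 14.20, 14.47 and 14.60 in the Hsp70 group and 14.31, 14.57 and 14.98 in aSYN/Hsp70. The highest value was aSYN/Hsp70 replicate 4, the array of lowest weight, and the aSYN and aSYN/Hsp70 ranges overlapped. The difference was 0.35 (SE 0.11, 95% interval 0.12 to 0.58, adjusted p = 0.108; 0.24 without the 4 arrays), and against wt 0.28 (SE 0.11, adjusted p = 0.304; 0.17 without the 4 arrays). The dim second probe set of Sdhd, at 9.99, lay 0.56 lower in aSYN/Hsp70 than in aSYN (difference -0.56, SE 0.30). The iron-sulfur subunit Sdhb differed by 0.013 to 0.16 over the 5 pairwise comparisons, and the other anchor, Sdhc, by -0.27 to -0.041. Their farthest values, both for aSYN/Hsp70 against wt, were 0.073 for Sdhb and -0.095 for Sdhc without the 4 arrays.

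In complex III the haem protein cytochrome c1 and a small accessory subunit stood out by p, without passing. Cyc1 lay at 15.00, 15.22 and 15.36 in wt, 15.18, 15.38 and 15.51 in aSYN, 15.30, 15.40 and 15.63 in the Hsp70 group and 15.30, 15.41 and 15.54 in aSYN/Hsp70. The lowest values were wt replicates 2 (15.00) and 6 (15.07), and the ranges of all groups overlapped. Cyc1 was 0.16 higher in aSYN (SE 0.082, adjusted p = 0.978), 0.23 in Hsp70 (adjusted p = 0.88; 0.15 without the 4 arrays) and 0.21 in aSYN/Hsp70 (adjusted p = 0.297; 0.19 without them).

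Uqcr11, the accessory subunit, had the smallest p of the interaction. It lay at 14.97, 15.15 and 15.20 in wt, 15.19, 15.24 and 15.34 in aSYN, 15.11, 15.26 and 15.45 in the Hsp70 group and 15.03, 15.13 and 15.22 in aSYN/Hsp70. Both single genotypes thus centred above wt and the double genotype at wt, with all ranges overlapping. The differences were 0.12 for aSYN against wt (SE 0.064, adjusted p = 0.995) and 0.14 for Hsp70 against wt (SE 0.064, adjusted p = 0.88). For aSYN/Hsp70 against wt it was -0.0013 (0.028 without the 4 arrays). For aSYN/Hsp70 against Hsp70 it was -0.14 (adjusted p = 0.508), or -0.096 without the 4 arrays. The interaction was -0.26 (SE 0.091, 95% interval -0.44 to -0.067, adjusted p = 0.451; -0.21 without the 4 arrays).

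Of the other complex III members, the core protein Uqcrc1 was the 1 member whose aSYN/Hsp70 arrays (15.12, 15.16 and 15.34) all lay above wt (15.04, 15.09 and 15.11), where 0.859% of named genes did not overlap in either direction; its difference of 0.10 had an interval from -0.021 to 0.22 (adjusted p = 0.406). Uqcrb was lower in aSYN/Hsp70 than in aSYN by a difference of -0.13 (SE 0.053, adjusted p = 0.178; -0.098 without the 4 arrays), and Uqcr10 higher by 0.23 (SE 0.11, adjusted p = 0.253; 0.091 without them), both small accessory subunits. The Rieske iron-sulfur protein Uqcrfs1 was 0.16 higher in Hsp70 than in wt (SE 0.076, adjusted p = 0.88; 0.079 without the 4 arrays). Cycs, somatic cytochrome c and the mobile carrier between complexes III and IV, differed by -0.13 between aSYN/Hsp70 and aSYN (SE 0.066, adjusted p = 0.267). Its other 3 probe sets differed by -0.34, -0.41 and -0.52 in that comparison, the same direction in 4 of 4. All probe sets also lay on the same side of 0 for 13 of the 25 members with several tested. Probe sets of a gene are read on the same arrays and are not independent.

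In complex IV, 9 of the 15 tested members had intervals within 0.5 log2 units in every pairwise comparison; these were ubiquitous subunits and Cox7a2l, a factor of supercomplexes. Cox4i1, the common form of subunit 4, differed by -0.0077 to 0.018 over the 5 pairwise comparisons. Cox6c, with the smallest spread of all members, differed by -0.024 to 0.086. For aSYN/Hsp70 against aSYN, Cox8a was 0.21 higher (SE 0.083, adjusted p = 0.171) and Cox7a2 differed by -0.14 (SE 0.060, adjusted p = 0.209). Without the 4 arrays these were 0.099 and -0.084.

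The tissue isoforms of complex IV were dim and variable, and their intervals exceeded 0.5 log2 units for 5 of 5 tested in each comparison. Cox8b, the heart and muscle form, lay at 8.02, 9.27 and 10.13 in wt, 8.88, 9.31 and 10.28 in aSYN, 8.72, 9.49 and 10.04 in the Hsp70 group and 5.71, 8.92 and 9.75 in aSYN/Hsp70. The low values were aSYN/Hsp70 replicates 4 (5.71) and 3 (7.30), both arrays of low weight. Cox8b differed by -1.07 between aSYN/Hsp70 and Hsp70 (SE 0.53, adjusted p = 0.528), and by 0.032 without the 4 arrays. Cox6b2, known from testis, lay at 7.50 in aSYN/Hsp70 replicate 3 against a group median of 10.14 and differed by -0.46 from aSYN (SE 0.37), or -0.19 without the 4 arrays. Cox6a2, Cox7a1 and Cox8c averaged 11.39, 9.66 and 10.01 and differed from wt in aSYN/Hsp70 by 0.36 (SE 0.20), 0.36 (SE 0.26) and 0.45 (SE 0.27), none past the threshold, and by 0.16, 0.26 and 0.25 without the 4 arrays. The 2 members left out as dim, Cox4i2 and Cox7b2, ranged from 5.39 to 9.76 and from 4.99 to 8.98 over all arrays. Of the striated muscle markers 2 of 8 were above the dim filter (Acta1 and Mylpf), with summed levels of 11.43 to 12.18 in wt, 11.78 to 12.15 in aSYN, 11.76 to 12.05 in the Hsp70 group and 11.64 to 12.32 in aSYN/Hsp70. Of the testis markers 1 of 6 was (Prm1), while Prm2, Tnp1, Tnp2, Akap4 and Ldhc were below it. Ckm, which defines muscle, was also below it.

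**Figure D2:**
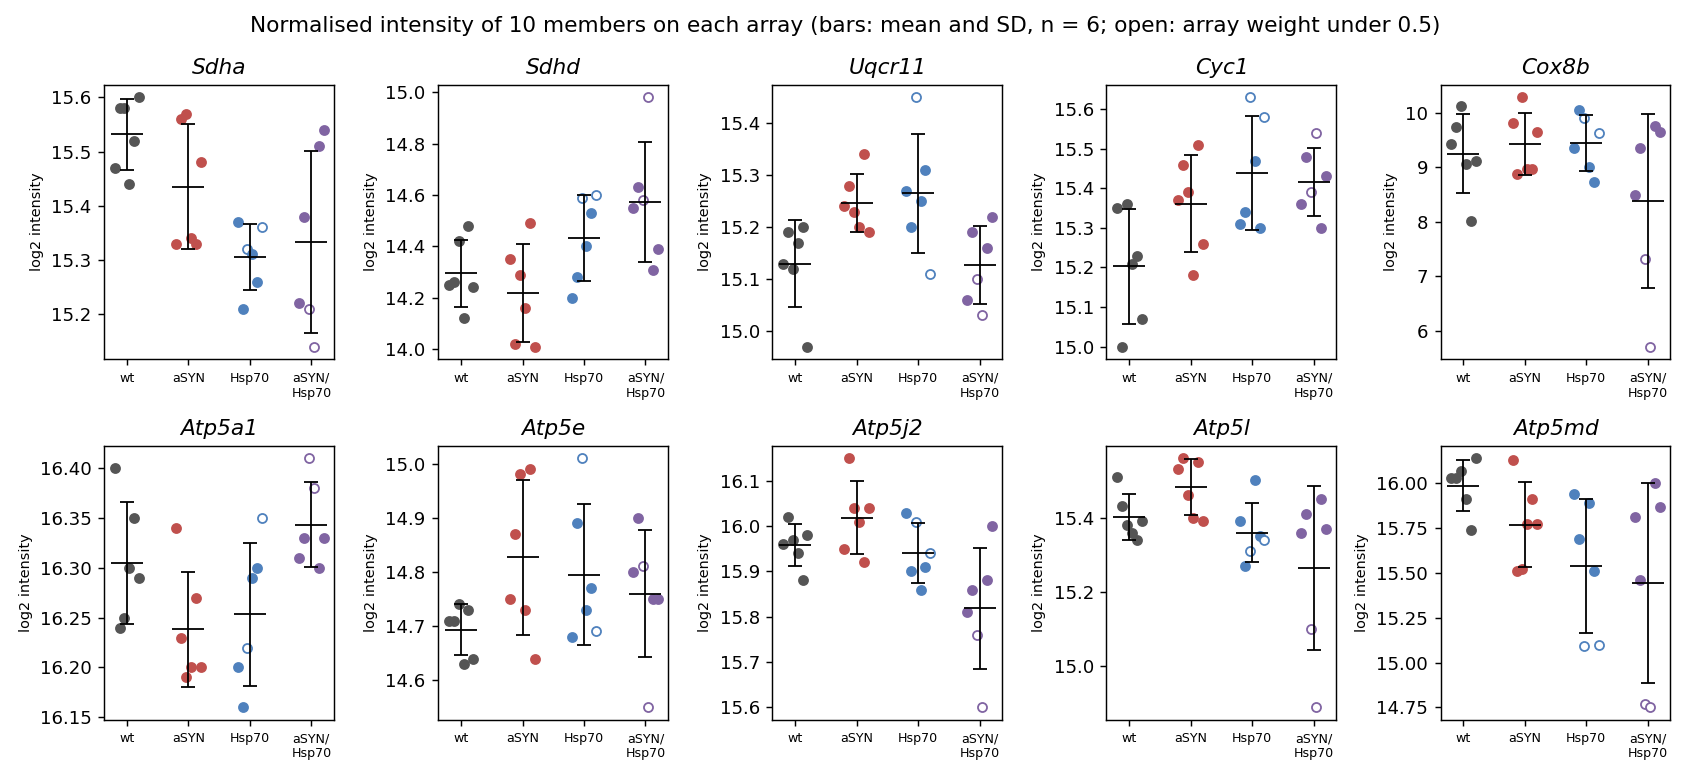
Normalised intensity (log2, vertical axes, each panel with its own range) of 10 members on every array by group (horizontal axes); bars are the mean and SD of 6 arrays, and open points are the 4 arrays of low weight. The open points of aSYN/Hsp70 are the lowest of their group for Sdha, Atp5md, Atp5l, Atp5j2 and Cox8b.

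In complex V, the subunits of the catalytic head varied little between groups. Atp5a1, its alpha subunit, lay at 16.24, 16.30 and 16.40 in wt, 16.19, 16.21 and 16.34 in aSYN, 16.16, 16.25 and 16.35 in the Hsp70 group and 16.30, 16.33 and 16.41 in aSYN/Hsp70, with all groups overlapping. Its interaction was 0.16 (SE 0.077, adjusted p = 0.615), beside 2.1e-05 on a second bright probe set (15.75) and -0.51 on a dim one (9.63). Atp5b, the beta subunit, differed by -0.036 to 0.12 over the 5 pairwise comparisons. Atp5e, the epsilon subunit of the stalk, lay at 14.63, 14.71 and 14.74 in wt and at 14.64, 14.81 and 14.99 in aSYN. Only part of the aSYN arrays exceeded wt, and the difference was 0.13 (SE 0.077, adjusted p = 1).

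The 5 small membrane subunits of complex V did not move one way. For aSYN/Hsp70 against wt, Atp5mpl was 0.40 higher (SE 0.17, adjusted p = 0.322), or 0.41 without the 4 arrays. Atp5k differed by 0.030 (SE 0.065), or 0.074 without the 4 arrays. Lower were Atp5j2 at -0.14, Atp5l at -0.14 and Atp5md at -0.54. Without the 4 arrays these were -0.069, -0.0052 and -0.19, so little was left of the Atp5l difference. Atp5j2 (subunit f) lay at 15.88, 15.96 and 16.02 in wt, 15.92, 16.02 and 16.15 in aSYN, 15.86, 15.92 and 16.03 in the Hsp70 group and 15.60, 15.83 and 16 in aSYN/Hsp70. It differed by -0.20 between aSYN/Hsp70 and aSYN (SE 0.065, 95% interval -0.34 to -0.068, adjusted p = 0.115; -0.13 without the 4 arrays). Without aSYN/Hsp70 replicate 6, whose value of 16 was the group's highest, Atp5j2 differed by -0.24 and passed at an adjusted p of 0.0478. It was the only call of a member in any fit. That fit called 813 of all probe sets tested in this comparison, against 194 in the fit of all arrays. The call can therefore not be read as particular to Atp5j2. Over the 12 fits that leave out 1 array of these groups the adjusted p of Atp5j2 ran from 0.0478 to 0.242. Its other 2 probe sets differed by -0.064 and -0.15.

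Atp5l (subunit g) lay at 15.34, 15.38 and 15.51 in wt, 15.39, 15.49 and 15.56 in aSYN, 15.27, 15.35 and 15.50 in the Hsp70 group and 14.89, 15.36 and 15.45 in aSYN/Hsp70. Its low values were aSYN/Hsp70 replicates 4 (14.89) and 3 (15.10), and the difference from aSYN was -0.22 (SE 0.082, adjusted p = 0.166), or -0.084 without the 4 arrays. Atp5md, a small subunit of the membrane part, lay at 15.74, 16.03 and 16.14 in wt, 15.51, 15.77 and 16.13 in aSYN, 15.09, 15.60 and 15.94 in the Hsp70 group and 14.75, 15.64 and 16 in aSYN/Hsp70. The 4 lowest values of Atp5md were exactly the 4 arrays of low weight. Its differences from wt were -0.45 in Hsp70 (SE 0.20, adjusted p = 0.88) and -0.54 in aSYN/Hsp70 (SE 0.20, adjusted p = 0.297), and -0.22 and -0.19 without those arrays. Atp5pb of the peripheral stalk differed by -0.26 between aSYN/Hsp70 and aSYN (SE 0.099, adjusted p = 0.17; -0.14 without the 4 arrays). The part of array quality in these differences was not tested further.

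**Figure D3:**
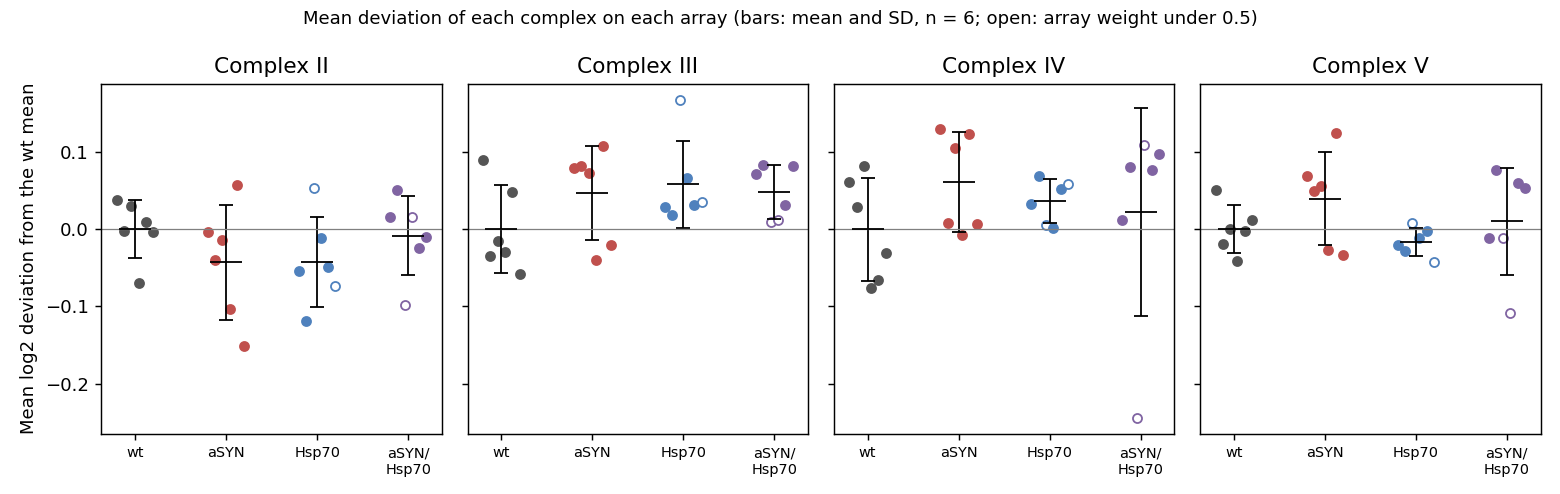
Mean log2 deviation of the tested members of a complex from their wt mean (vertical axis) on each array, by group (horizontal axis), for complexes II to V; bars are the mean and SD of 6 arrays and open points the 4 arrays of low weight. All groups overlap in every panel, and aSYN/Hsp70 replicate 3 lies lowest in complex IV at -0.24.

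As wholes the complexes did not separate the groups. The mean deviation of complex II from wt was -0.043 ± 0.074 in aSYN, -0.043 ± 0.059 in the Hsp70 group and -0.0086 ± 0.051 in aSYN/Hsp70 (SD, n = 6), with an SD of 0.038 in wt. For complex III it was 0.047 ± 0.061, 0.058 ± 0.056 and 0.048 ± 0.034 (wt SD 0.057), for complex IV 0.061 ± 0.065, 0.036 ± 0.028 and 0.022 ± 0.13 (wt SD 0.067), and for complex V 0.039 ± 0.060, -0.016 ± 0.018 and 0.010 ± 0.069 (wt SD 0.031). The arrays of each group overlapped those of wt in every complex. The complex IV score of aSYN/Hsp70 had a median of 0.079, with replicate 3 lowest. The 5 dim tissue isoforms count in this score like any other member. Their own mean deviation was 0.17 ± 0.12 in aSYN, 0.059 ± 0.14 in the Hsp70 group and -0.045 ± 0.40 in aSYN/Hsp70 (wt SD 0.20). On aSYN/Hsp70 replicate 3 it was -0.82. Complex IV without the isoforms was not scored. For 4 control transcripts the log2 signal of the 3' end less that of the 5' end, a sign of RNA integrity, had medians of 0.82 for aSYN/Hsp70, 0.9 for wt, 0.941 for Hsp70 and 1.03 for aSYN, with overlapping ranges. In the order wt, aSYN, Hsp70 and aSYN/Hsp70, summed oligodendrocyte markers had medians of 18.11, 18.06, 18.06 and 17.97 and neuron markers of 18.68, 18.65, 18.66 and 18.58. Microglia markers had medians of 15.64, 15.64, 15.63 and 15.74, and endothelium markers of 14.21, 13.98, 14.34 and 14.30, the aSYN range (13.89 to 14.10) lying below that of the Hsp70 group (14.23 to 14.46). Pituitary markers reached 17.43 on 1 wt array against a wt median of 11.73. Their part in the values above was not tested.

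Different probe sets of a gene often disagreed. Of the 25 members with several tested probe sets, 18 had all of them on the same side of 0 for aSYN against wt, 16 for Hsp70 against wt, 11 for aSYN/Hsp70 against wt, 13 for aSYN/Hsp70 against aSYN, 10 for aSYN/Hsp70 against Hsp70 and 11 for the interaction. In aSYN/Hsp70 against aSYN, 7 members had probe sets of opposite sign with at least 1 at an unadjusted p under 0.05: Sdhd, Cox5a, Cox5b, Cox6a1, Cox6b1, Atp5a1 and Atp5o. The nearest to the threshold was the second probe set of Cox6a1, a ubiquitous subunit, at 0.23 (SE 0.056, adjusted p = 0.0522), while its brightest differed by -0.0036. For Cox5a, the brightest probe set differed by 0.15 and the faintest of its 3 by -0.75 (SE 0.25). In aSYN/Hsp70 against wt such members were Sdha, Sdhd, Cox5b and Atp5j2, in aSYN against wt and the interaction Cox6a1, and in the other 2 comparisons Sdha. Cox8a was alike on both of its probe sets, at 0.21 and 0.30 for aSYN/Hsp70 against aSYN.

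**Figure D4:**
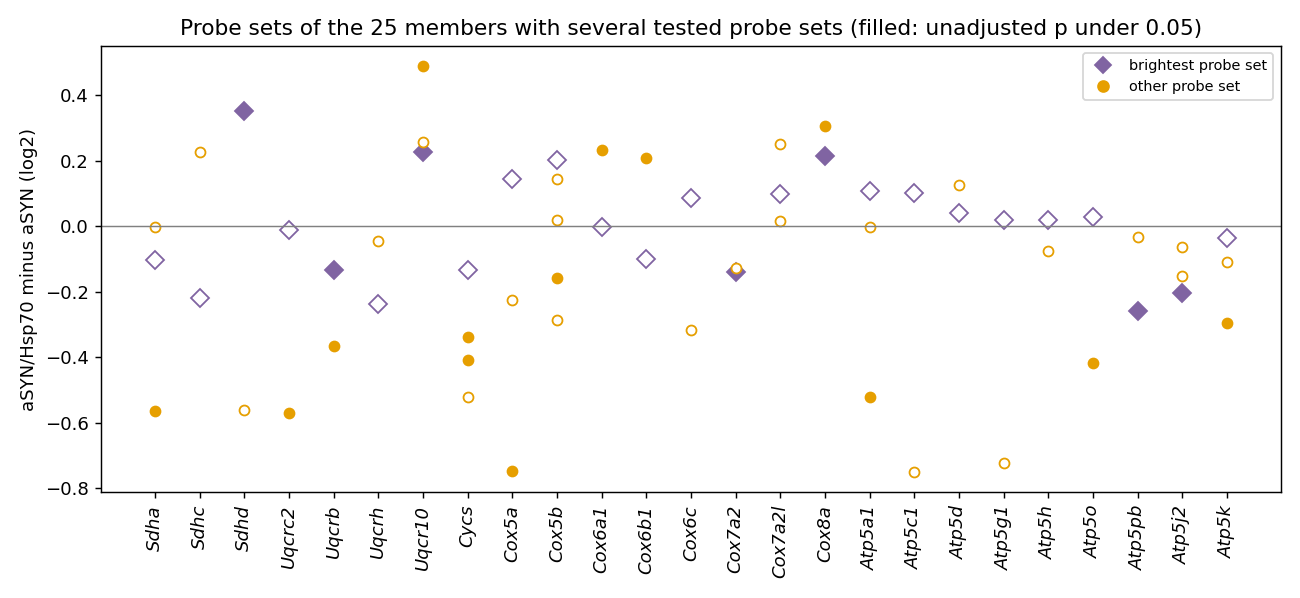
Difference of aSYN/Hsp70 minus aSYN (log2, vertical axis) for every tested probe set of the 25 members with several of them (horizontal axis); diamonds are the brightest probe set, circles the others, filled where the unadjusted p is under 0.05. Of the 25 genes, 12 have points on both sides of 0, and the lowest points, both at -0.75, are dimmer probe sets of Atp5c1 and Cox5a.

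Neighbouring sets gave a scale for these counts. Of 35 tested complex I subunits, 30 were higher in aSYN than in wt (median 0.061, 1 at an unadjusted p under 0.05), and of 41 tested cytosolic ribosomal proteins 30 were (median 0.037, 0 at that p), beside 31 of 46 members and 6768 of 12929 named genes. In aSYN/Hsp70 against aSYN, 20 of 35 complex I subunits were lower (at that p, 9 lower and 3 higher) and 27 of 41 ribosomal proteins (10 lower and 0 higher), beside 19 of 46 members (5 lower and 3 higher) and 6755 of 12929 named genes (1273 lower and 1069 higher). In neither set was a gene called in any comparison, and the difference between the sets was not tested.

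Assembly factors, which build complexes II to V, were tested for 31 of 35 genes, and 0 were called. The counts of this and the next lists stand beside those of all 12929 named genes at an unadjusted p under 0.05: 292 higher and 276 lower in aSYN against wt, 360 and 253 in Hsp70 against wt, 905 and 975 in aSYN/Hsp70 against wt, 1069 and 1273 against aSYN, 469 and 610 against Hsp70, and 364 and 447 in the interaction. At an unadjusted p under 0.05, 4 were higher and 0 lower in aSYN against wt (smallest p, the copper chaperone Cox11 at 0.22, SE 0.080, adjusted p = 0.726). In aSYN/Hsp70 against wt 4 were higher and 1 lower (Sdhaf2, which helps to attach the flavin of Sdha, at 0.40, SE 0.14, adjusted p = 0.28), and in aSYN/Hsp70 against aSYN 2 were higher and 5 lower (Higd1a at -0.54, SE 0.13, adjusted p = 0.0508). None passed that p in Hsp70 against wt (Sdhaf4 at 0.13) or aSYN/Hsp70 against Hsp70 (Cox15 at -0.24), and 1 was lower in the interaction (Cox18 at -0.45).

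Regulators of mitochondrial gene expression held the single call of these lists. Ssbp1, which binds single-stranded mitochondrial DNA, lay at 11.93, 12.81 and 13.28 log2 units in wt, 12.90, 13.20 and 13.50 in aSYN, 12.20, 12.50 and 13.11 in the Hsp70 group and 11.72, 12.18 and 12.72 in aSYN/Hsp70. All aSYN/Hsp70 arrays were below all aSYN arrays, where 1.79% of named genes did not overlap in either direction. The difference was -1.01 (SE 0.20, limma adjusted p = 0.0208), in a comparison where 0.718% of probe sets were called. It was -0.83 (adjusted p = 0.0958) without the 4 arrays of low weight, and lost the call in 4 of the 12 fits without 1 array, where the difference ran from -1.13 to -0.93: without aSYN replicate 2 (adjusted p = 0.0599), 3 (0.057) or 6 (0.0504) or aSYN/Hsp70 replicate 3 (0.0565). Of 11 alternatives it was called in 6; with only the arrays of these groups the adjusted p was 0.0825, without the dim filter 0.0571, and with the mean of all its probe sets the difference was -0.33 (adjusted p = 0.17). Its other 3 tested probe sets differed by -0.35 (adjusted p = 0.113), 0.11 and -0.047. With the replicate number as a block its adjusted p was 0.0516.

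The remaining regulators, 15 of the 16 tested of 17, were not called. Counting all 16 at an unadjusted p under 0.05, 1 was higher in aSYN against wt (Ssbp1, 0.48), 1 higher and 2 lower in aSYN/Hsp70 against wt (Ssbp1, -0.54), 1 higher and 3 lower in aSYN/Hsp70 against aSYN, 1 higher and 2 lower in aSYN/Hsp70 against Hsp70 (the nuclear receptor Esrra, 0.48, SE 0.15, adjusted p = 0.336) and 2 lower in the interaction (Ssbp1, -0.90, SE 0.28, adjusted p = 0.364); in Hsp70 against wt there were 0 (Tfb1m, -0.34). Of 11 tested carriers and outer membrane channels of 12, 0 were called, and at that p 1 was lower in Hsp70 against wt (the aspartate-glutamate carrier Slc25a12, -0.17, SE 0.071), 1 higher in aSYN/Hsp70 against wt (Slc25a11, 0.16) and 1 higher (the channel Vdac1, 0.21, SE 0.072) and 1 lower in aSYN/Hsp70 against aSYN, with 0 elsewhere (Vdac3 at 0.15 in aSYN against wt, Slc25a12 at 0.12 in aSYN/Hsp70 against Hsp70 and at 0.20 in the interaction). Of 12 tested import and cristae genes of 13, 0 were called; at that p 2 were higher in aSYN/Hsp70 against wt, 1 against aSYN and 1 against Hsp70, with 0 lower and 0 elsewhere. Apoo, a part of the cristae-organising complex, had the smallest p in aSYN/Hsp70 against wt (0.26, SE 0.089, adjusted p = 0.274), against aSYN (0.24) and against Hsp70 (0.21). Phb2, a prohibitin, had it in aSYN against wt (0.11), Hsp70 against wt (0.13) and the interaction (-0.16).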

How the data were processed

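The authors deposited 1 linear intensity for each probe set on each array; the program behind it was not given in the sources used. As the values show, every deposited array had been scaled to a mean of 2500 without its lowest and highest 2%. Values were transformed as log2(intensity + 16), which understates differences of dim probe sets, and quantile normalised. Of the probe sets, 64 controls and the 18015 dimmest (40%) were left out, and 27022 were tested. GEO's platform annotation gave 1 symbol to 34958 probe sets, several to 932 and none to 9211. A limma 3.58.1 fit (R 4.3.3, lmFit and eBayes) with a mean per group gave all contrasts, with Benjamini-Hochberg adjustment. It was also run on simulated data with independent probe sets and arrays of equal quality. That run does not cover arrays of low weight or probe sets that vary together. The number of arrays limits precision. No 2 arrays correlated above 0.95.

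Members and lists were chosen with earlier results of these data known. Values by array were given for the 3 members of smallest p per contrast, by rule, and tissue isoforms, genes with opposite probe sets and the smallest p of each list were named. Sdhb, Sdhc, Uqcrc1, Uqcrb, Uqcr10, Uqcrfs1, Cycs, Cox4i1, Cox6c, Cox8a, Cox7a2, Cox7a2l, Cox7c, Atp5b, Atp5c1, Atp5k, Atp5mpl and Atp5pb were named after their values were seen. Figures used matplotlib 3.10.9.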

Additional observations from a re-analysis of the deposited data

Results flagged for a closer look

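Of 56 groups of 6 arrays examined (the named members and the complex scores, in 4 groups each), 3 held an array whose gap to its nearest neighbour was large for the group's range; chance gives about 1 in 20. Uqcr11 stood at 14.97 in wt replicate 6, against a wt median of 15.15. The complex III score was 0.168 in Hsp70 replicate 3, an array of low weight, against a group median of 0.033. The complex IV score was -0.244 in aSYN/Hsp70 replicate 3, also of low weight, against a group median of 0.079; Cox6b2 stood at 7.50 and Cox8b at 7.30 on that array.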

How the results depend on the processing

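In 11 alternatives (10 for the interaction, which has no fit of only the groups compared), 0 members were called in any comparison. With 1 array left out, the count for aSYN/Hsp70 against aSYN ran from 0 to 1 (Atp5j2). The median member difference moved without quantile normalisation to 0.0762 (Hsp70 against wt), 0.172 (aSYN/Hsp70 against wt), 0.121 (against aSYN), 0.0846 (against Hsp70) and 0.0456 (interaction), and with the mean of all probe sets to 0.0025 (aSYN/Hsp70 against wt) and -0.047 (against aSYN). Reversed were Cox8b in aSYN/Hsp70 against Hsp70 without the arrays of weight under 0.5 (0.032), and, with the mean of all probe sets, Sdhd in aSYN/Hsp70 against aSYN (-0.11) and the interaction of Atp5a1 (-0.12). Beyond the differing arrays and probe sets, the cause was not tested. Members at an unadjusted p under 0.05 numbered 1 to 22 for aSYN/Hsp70 against wt and 2 to 16 against aSYN, the lowest without the 4 arrays. The shares of all named genes at that p were not counted in the alternatives. Probe sets called for aSYN/Hsp70 against aSYN numbered 194, but 7 with only those groups' arrays and 370 with a trended and robust variance. With 1 array left out they ran from 49 (without aSYN replicate 2) to 813 (without aSYN/Hsp70 replicate 6, the fit that called Atp5j2). Array weights called 217 for aSYN against wt (1 before) and 75 for the interaction (0 before). Replicate numbers did not clearly pair the arrays. The 36 same-numbered pairs correlated at -0.148 to 0.193, with a median of 0.0191 beside -0.00755 for pairs of other numbers. Of 24 arrays, 8 correlated best with their own number, and the count to be had by chance was not worked out. With the replicate block, Sdhd in aSYN/Hsp70 against aSYN kept 0.35 (adjusted p = 0.141), 0 members were called, and members at an unadjusted p under 0.05 for Hsp70 against wt went from 5 to 3.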
